A study of Mus musculus with 15 samples.

Results

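The clustered histone genes are the replication-dependent histone genes that lie side by side in a few places of the mouse genome, and they were followed here in cultured mouse granulosa cells after knockdown of 2 transcription factors. Members were chosen by symbol and total count, as all rows of the count tables whose symbol starts with Hist and a digit and that held at least 10 counts summed over the 15 libraries. Of 69 such rows 58 were members, out of 24490 genes in the tables: 6 encode linker histone H1, 14 H2A, 16 H2B, 10 H3 and 12 H4. That total is given only as a description. Just inside the minimum lay Hist1h1t with 38 counts and Hist2h4 with 55, just outside it Hist3h2bb-ps with 6 and Hist2h2aa2 with 2, and 6 rows held 0 counts. By the GENCODE M21 annotation of GRCm38 (mm10), 49 members lie on chromosome 13 (the Hist1 cluster and Hist1h2al), 6 on chromosome 3 (Hist2), 2 on chromosome 11 (Hist3) and 1 on chromosome 6 (Hist4).

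RNA came from primary granulosa cells, which surround and feed the oocyte in the ovary, of 8-week-old RjOrl:SWISS females with no stated genetic change. All 15 libraries came from cells transfected with 30 pmol of siRNA in Lipofectamine RNAiMax, and they form 5 groups of 3: scrambled siRNA at 30 h, scrambled siRNA at 54 h, Foxl2 siRNA at 30 h, Foxl2 siRNA at 54 h and Esr2 siRNA at 30 h. Foxl2 is a forkhead factor of granulosa cells and Esr2 is estrogen receptor beta. The siRNAs came as pools of 3 per target, and the labels name 4 pools per target with identical catalogue numbers for both targets, so the siRNAs of a library are not known here. The titles give both times, while the extraction protocol names 30 h alone. Separate cultures or animals within a group are not stated, so the p-values measure only how far these libraries spread, and that spread may be technical.

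Libraries held 45.0 to 59.6 M gene counts, and the 58 members together took 0.0354% of them. Levels are given as counts-per-million values (CPM) after TMM scaling, which sets libraries on the level of the bulk of their genes. The knockdowns were visible in their targets. Foxl2 stood at 189, 154 and 166 CPM in the scrambled libraries of 54 h, against 33.6, 57.5 and 25.2 CPM in those with Foxl2 siRNA, so the second Foxl2 siRNA library at 54 h kept the most Foxl2. At 30 h Foxl2 fell from 174, 152 and 143 to 33.8, 28.4 and 65.4 CPM. Esr2 was 60.6, 60.4 and 61.6 CPM in scrambled and 12.9, 14.5 and 13.9 CPM in Esr2 siRNA libraries at 30 h. Each target also stood lower in the other knockdown at 30 h. Esr2 was at 29.2, 25.0 and 45.5 CPM after Foxl2 siRNA. Foxl2 was at 112, 128 and 114 CPM after Esr2 siRNA, a difference not called by edgeR. After Foxl2 siRNA at 54 h Esr2 stood at 18.0, 49.3 and 15.7 CPM, so the second library kept the most Esr2 as well. All 17 granulosa markers, which include Foxl2 and Esr2, were measured at testable levels. After Foxl2 siRNA at 54 h 8 of them were lower and 5 higher by edgeR, where 38.8% of all genes were called. Of 12 leukocyte markers 5 were testable, of which 2 were higher and 0 lower after Foxl2 siRNA at 54 h by edgeR. Tyrobp was at 0 counts in both groups at 54 h.

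DNA is wound around octamers of the core histones H2A, H2B, H3 and H4, and H1 binds the linker DNA between them. Most of the supply is made during S phase, when the clustered genes are transcribed together under the coactivator Npat. Their mRNAs usually carry no poly(A) tail and end instead just after a short stem-loop, which is bound by the stem-loop binding protein Slbp and needed for processing and decay. Replacement histones such as H2afz, H2afx and H3f3b come from single genes elsewhere, mostly with poly(A) tails, and are made outside S phase too. The libraries were made with a poly(A) mRNA kit, so histone transcripts that end at the stem-loop are captured poorly, and a level here is that of the transcripts the kit recovered. In bulk RNA, more cells holding a transcript and more of it per cell cannot be told apart.

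The stem-loop is shown for a member of each class because it sets how these transcripts can be captured. The consensus of the histone 3′ stem-loop, with 16 bases, was searched on the transcript strand downstream of the stop codon in the longest GENCODE transcript. It was found in 37 of 58 members, 21 to 54 bases after the stop codon, and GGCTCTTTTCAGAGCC was the form in 20 of them. Of the 21 without a match, 15 have fewer than 16 annotated bases after the stop codon, so the letters could not be looked for there. In the sequences the loop is in capitals, with 5 flanking bases on each side.
Hist1h1c: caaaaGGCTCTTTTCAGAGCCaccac
Hist2h2ac: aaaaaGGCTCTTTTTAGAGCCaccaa
Hist1h2bg: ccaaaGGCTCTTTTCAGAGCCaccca
Hist1h3d: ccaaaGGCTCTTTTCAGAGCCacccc
Hist1h4i: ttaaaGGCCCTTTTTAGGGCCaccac
Of the 37 members with a loop, 20 have a transcript annotated more than 100 bases past it. Hist1h1c is annotated 840 bases past its loop, Hist1h2be 1861 bases and Hist3h2a 1643 bases. Such extended forms are transcripts that run beyond the usual end.

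The copies are so alike that reads cannot be assigned freely between them, and the next sequences show this for H2B. Of the 58 members, 51 share at least 1 exact 75-base window, the length of a read, with another Hist gene of their class, and in 34 more than 50% of windows recur elsewhere in the class with up to 2 mismatches. The window below, from GENCODE transcripts, occurs without mismatch in 11 of the 16 H2B members. Capitals mark bases that differ from Hist1h2bc.
Hist1h2bc: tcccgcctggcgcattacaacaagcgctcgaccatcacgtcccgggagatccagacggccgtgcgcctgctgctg
Hist1h2bl: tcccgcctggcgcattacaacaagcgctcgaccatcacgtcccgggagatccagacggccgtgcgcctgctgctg
Hist2h2bb: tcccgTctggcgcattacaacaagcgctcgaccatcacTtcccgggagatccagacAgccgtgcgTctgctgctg
Hist2h2be: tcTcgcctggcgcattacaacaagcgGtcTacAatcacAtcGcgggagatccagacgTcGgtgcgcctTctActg
Hist2h2bb differs at 4 positions and Hist2h2be at 10, and neither shares an exact window with another H2B gene. The deposited counts follow this likeness across libraries. Over the 15 libraries, deviations of log2 CPM from the group means had a median Pearson correlation of 0.97 over the 78 H2B pairs that share windows and 0.61 over the 27 that do not, where all pairs share libraries and depth. Counts of single copies are therefore not independent measurements, and class sums are given beside them. How reads that match several copies were counted is not given, so a sum may hold the same read more than once.

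Promoters of 52 members were found among RefSeq promoters of GRCm38.p6, each 250 bases before to 50 bases after the start. Motifs were searched on both strands, and no motif contains another. ATTTGCAT, the octamer, was in 7 of 14 H2B and 6 of 13 H2A promoters and in 0 of the H1, H3 and H4 promoters, against 1.7% of all 32851 promoters. AAACACA, the H1 box, was in 5 of 6 H1 promoters, 2 H2B and 1 H2A promoter, against 7.2% of all promoters. CCAAT was in all 6 H1, 13 H2A, 14 H2B and 8 H3 promoters and in 3 of 11 H4 promoters, against 37.4% of all. TATAAA was in 4 H1, 9 H2A, 8 H2B, 4 H3 and 7 H4 promoters, against 13.6% of all. H2A and H2B genes often lie back to back and share a promoter, so their matches are not independent. The 150 bases before the start are shown for the H1, H2B and H3 member with the highest count among those with a promoter, with these motifs in capitals.
Hist1h1c, chr13:23738657-23738806, plus strand: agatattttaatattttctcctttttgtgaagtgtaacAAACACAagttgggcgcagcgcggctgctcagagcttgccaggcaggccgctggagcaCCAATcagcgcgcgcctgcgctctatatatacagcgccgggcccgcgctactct
Hist1h2bl, chr13:21716184-21716333, minus strand: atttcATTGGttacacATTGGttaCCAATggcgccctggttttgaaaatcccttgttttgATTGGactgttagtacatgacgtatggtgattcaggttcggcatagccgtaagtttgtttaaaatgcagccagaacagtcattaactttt
Hist2h3b, chr3:96268504-96268653, plus strand: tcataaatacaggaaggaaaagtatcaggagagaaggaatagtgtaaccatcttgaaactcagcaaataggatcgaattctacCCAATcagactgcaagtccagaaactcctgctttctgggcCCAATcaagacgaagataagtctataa
The Hist1h1c stretch holds an H1 box and 1 CCAAT, Hist2h3b holds CCAAT on the plus strand only, and Hist1h2bl holds CCAAT on both strands.

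After Foxl2 siRNA at 54 h members of all 5 histone classes were higher relative to the bulk of genes. The summed level of all members was 1.85-fold that of the scrambled libraries at 54 h. Of the 54 members that passed the expression filter, 44 were higher and 0 were lower at an adjusted p under 0.05 by the quasi-likelihood test of edgeR, adjusted by the Benjamini-Hochberg method over 14907 genes. Of all genes tested, 38.8% were called in this comparison and 18.5% were higher. The median log2 change of the 54 members was 1.03, against -0.01 over all genes tested. In 42 of them the 3 Foxl2 siRNA libraries all lay above the 3 scrambled libraries, which held for 23.5% of all genes. Hist1h1t, Hist2h4, Hist4h4 and Hist3h2ba were too low to test, with 38, 55, 90 and 68 counts over all libraries.

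**Figure D1:**
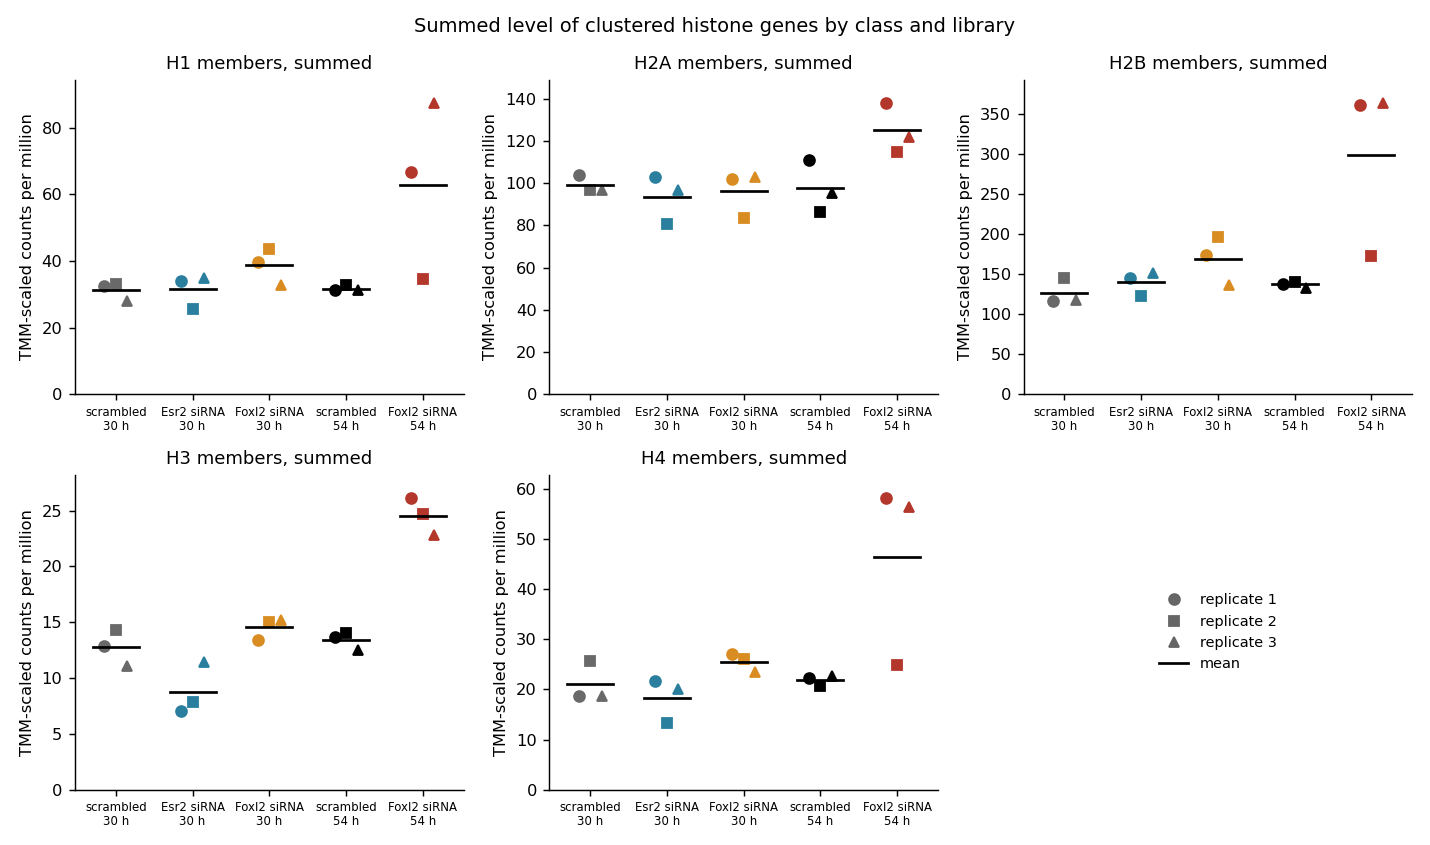
Summed TMM-scaled CPM in each histone class, with 1 symbol per library, its shape showing the replicate number, and a line at the mean of the 3 libraries of a group. The mean of every class is highest after Foxl2 siRNA at 54 h, with the smallest ratio for H2A (125 against 97.5 CPM in scrambled at 54 h). The second library of that group stays close to scrambled for H1 and H4 but not for H3.

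H2B, which pairs with H2A in the nucleosome, had the largest summed level, which may also depend on how many alike copies it holds. The H2B sum was 138, 141 and 133 CPM in scrambled and 362, 173 and 364 CPM in Foxl2 siRNA libraries at 54 h, a ratio of 2.18. All 15 H2B members tested were higher, with log2 changes between 0.68 and 1.22 and a median of 1.13. The second Foxl2 siRNA library lay above all scrambled libraries but well below the others of its group.

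Hist1h2bc, the H2B member with the most counts, stood at 34.3, 36.4 and 34.3 CPM in scrambled and 90.0, 44.0 and 93.2 CPM in Foxl2 siRNA libraries at 54 h. The groups did not overlap, and the log2 change was 1.11 ± 0.22 (SE, n = 3 per group; adjusted p = 0.00169 by edgeR). Hist1h2bl moved from 12.5, 12.4 and 11.6 to 34.2, 15.5 and 33.9 CPM and Hist1h2bg from 12.9, 13.0 and 11.9 to 34.0, 15.6 and 34.2 CPM. These 3 copies share the printed window, and in each the first and the third Foxl2 siRNA libraries stood far above the second. Hist1h2bj had a log2 change of 1.22 ± 0.23 (adjusted p = 0.00132 by edgeR, n = 3 per group) and Hist1h2bk one of 1.22 ± 0.24 (adjusted p = 0.0014 by edgeR). Per kilobase of annotated transcript, Hist1h2bl was at 42.2 CPM, Hist1h2bc at 38.0 and Hist2h2be at 1.81 over all 15 libraries.

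Hist2h2be shares no exact window with another member. It stood at 3.99, 3.74 and 4.29 CPM in scrambled and 6.95, 5.71 and 6.64 CPM in Foxl2 siRNA libraries at 54 h. The 3 Foxl2 siRNA libraries lay close together and above every scrambled library, with a log2 change of 0.68 ± 0.14 (adjusted p = 0.00172 by edgeR, n = 3 per group). Hist2h2bb was named after its values were seen, because it too shares no exact window with another member. It does share 153 exact windows with the noncoding gene Gm42743. Hist2h2bb moved from 1.30, 0.967 and 1.23 to 2.57, 1.82 and 2.29 CPM. Its log2 change was 0.93 ± 0.22 (adjusted p = 0.00498 by edgeR, n = 3 per group). All 4 tested members that share no exact window with another member, which are these and Hist1h1a and Hist1h1b, were higher.

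H1, the linker histone, rose in all 5 tested members. Of these 3 were called when the second or the third scrambled library, or the first or the third Foxl2 siRNA library, at 54 h was left out, and 2 with only the 2 groups compared in the fit. The H1 sum was 31.2, 32.8 and 31.2 CPM in scrambled and 66.6, 34.6 and 87.4 CPM in Foxl2 siRNA libraries at 54 h, a ratio of 1.98. Hist1h1c, the member with most H1 counts, stood at 23.6, 25.5 and 23.4 CPM in scrambled and at 50.6, 26.4 and 66.5 CPM after Foxl2 siRNA. The second library exceeded the highest scrambled library only narrowly, and the log2 change was 0.98 ± 0.24 (adjusted p = 0.00635 by edgeR, n = 3 per group). With only the 2 groups compared in the fit, Hist1h1c had an adjusted p of 0.052 by edgeR at a log2 change of 1.0.

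Hist1h1d moved from 3.48, 3.24 and 3.60 to 6.53, 3.61 and 9.40 CPM, with a log2 change of 0.92 ± 0.30 (adjusted p = 0.0263 by edgeR, n = 3 per group). Hist1h1e moved from 3.59, 3.58 and 3.62 to 7.41, 3.79 and 9.28 CPM, also by 0.92 ± 0.28 (adjusted p = 0.0183 by edgeR). Both calls were lost in several of the alternatives, 7 of 22 for Hist1h1d and 5 of 22 for Hist1h1e, with the lowest log2 changes, 0.55 and 0.63, without the third Foxl2 siRNA library at 54 h. Hist1h1a, an H1 subtype of low level here, moved from 0.128, 0.114 and 0.0865 to 0.968, 0.236 and 1.04 CPM. Its log2 change of 2.74 ± 0.56 (adjusted p = 0.00208 by edgeR, n = 3 per group) was the largest of the 54 tested members, and the scrambled libraries lay only a few counts above the floor of 3 counts. Hist1h1b, chosen after its values were seen, moved from 0.330, 0.360 and 0.45 to 0.990, 0.556 and 1.0 CPM, a log2 change of 1.15 ± 0.26 (adjusted p = 0.00388 by edgeR).

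**Figure D2:**
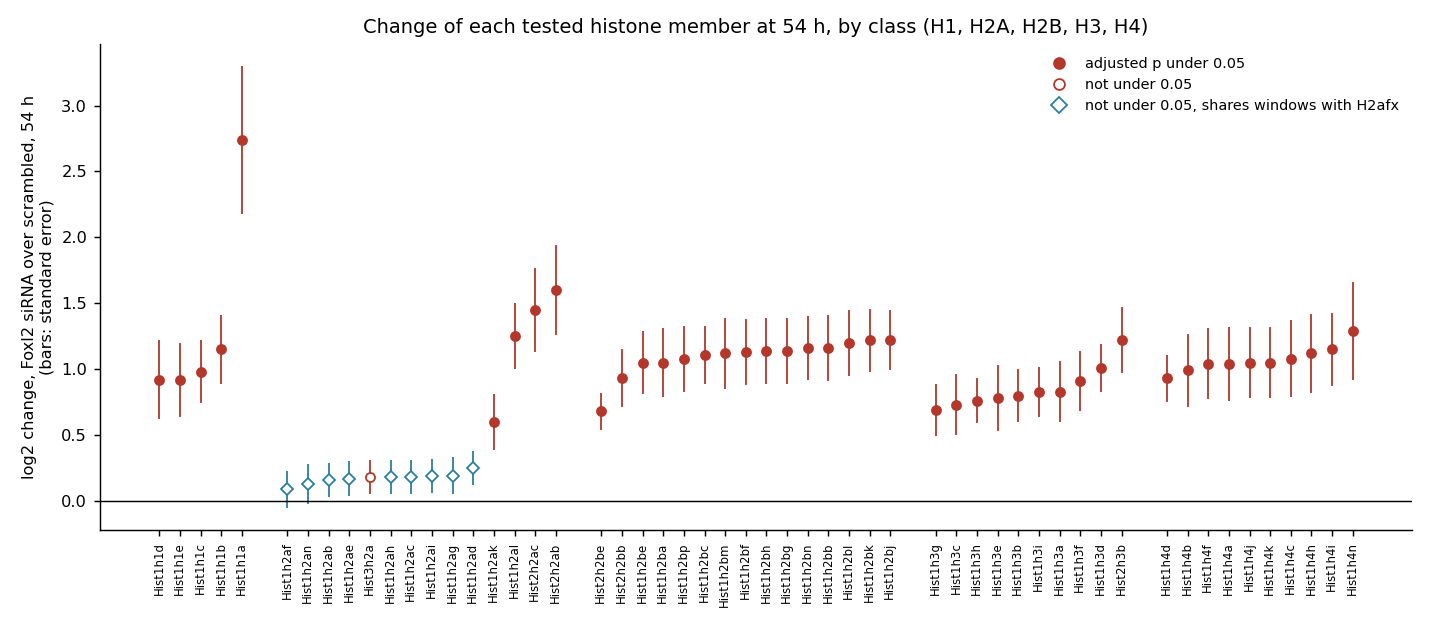
Log2 change of each of the 54 tested members between Foxl2 siRNA and scrambled libraries at 54 h (n = 3 per group), ordered by class and within it by size, with standard errors. Filled symbols have an adjusted p under 0.05, and the 9 diamonds near 0 are the H2A members that share exact 75-base windows with H2afx.

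H3, which carries much of the modified tail of the nucleosome, rose in all 10 members, though 6 were called without the third scrambled library at 54 h. The H3 sum was 13.7, 14.0 and 12.5 CPM in scrambled and 26.1, 24.7 and 22.8 CPM in Foxl2 siRNA libraries at 54 h, a ratio of 1.83. Unlike in the H1, H2B and H4 sums, the second library stood level with the others. Hist1h3d moved from 1.52, 1.56 and 1.30 to 3.06, 2.86 and 2.91 CPM, with a log2 change of 1.01 ± 0.18 (adjusted p = 0.000729 by edgeR, n = 3 per group), the smallest adjusted p of all members. Hist1h3h moved from 1.61, 1.74 and 1.44 to 2.71, 3.02 and 2.39 CPM, by 0.76 ± 0.17 (adjusted p = 0.00399 by edgeR).

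Hist2h3b is the only H3 member of the Hist2 cluster and did not follow this even pattern. It shares 325 exact windows with transcripts annotated to Gm20634. Hist2h3b moved from 1.67, 1.38 and 1.49 to 4.46, 2.22 and 3.89 CPM, so its second Foxl2 siRNA library was the lowest of the 3. Its log2 change was 1.22 ± 0.25 (adjusted p = 0.00235 by edgeR, n = 3 per group).

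H4 rose in all 10 tested members, though 6 were called without the first Foxl2 siRNA library at 54 h and 5 with only the 2 groups compared in the fit. The H4 sum was 22.3, 20.7 and 22.6 CPM in scrambled and 58.2, 24.9 and 56.5 CPM in Foxl2 siRNA libraries at 54 h, a ratio of 2.12. Hist1h4i moved from 4.14, 4.19 and 4.26 to 12.0, 4.62 and 11.4 CPM, by a log2 change of 1.15 ± 0.28 (adjusted p = 0.00635 by edgeR, n = 3 per group). Hist1h4k moved from 2.47, 2.16 and 2.58 to 6.16, 2.90 and 5.89 CPM. Hist1h4h is the H4 member whose groups overlapped, since its second Foxl2 siRNA library at 2.75 CPM lay below the highest scrambled library at 2.78. With only the 2 groups compared in the fit, Hist1h4h had an adjusted p of 0.0653 by edgeR. Hist1h4d moved more evenly, from 1.10, 0.778 and 1.02 to 1.91, 1.52 and 2.12 CPM (log2 change 0.93 ± 0.18; adjusted p = 0.00123 by edgeR, n = 3 per group).

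H2A was the class that split. Of its 14 members 4 were higher at 54 h, where 18.5% of all genes were higher. The class median log2 change was 0.19. The H2A sum was 111, 86.3 and 95.4 CPM in scrambled and 138, 115 and 122 CPM in Foxl2 siRNA libraries, a ratio of 1.28. The members higher were Hist1h2al, Hist2h2ab, Hist2h2ac and Hist1h2ak. Hist1h2al moved from 9.87, 8.48 and 8.62 to 27.7, 12.5 and 23.9 CPM, a log2 change of 1.25 ± 0.25 (adjusted p = 0.00184 by edgeR, n = 3 per group). GENCODE M21 lists Hist1h2al as a processed pseudogene at chr13:51202727-51203065, away from the Hist1 cluster.

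The other called H2A members are given with their values because of this split, and were chosen after those values were seen. Hist2h2ab moved from 0.421, 0.341 and 0.588 to 1.89, 0.741 and 1.52 CPM (log2 change 1.60 ± 0.34; adjusted p = 0.00271 by edgeR, n = 3 per group). Hist2h2ac moved from 1.74, 1.14 and 1.30 to 5.48, 2.0 and 4.01 CPM (log2 change 1.45 ± 0.32; adjusted p = 0.00325 by edgeR). Hist1h2ak overlapped between the groups, at 1.35, 0.948 and 0.969 against 1.78, 1.30 and 1.91 CPM (log2 change 0.60 ± 0.21; adjusted p = 0.0389 by edgeR), and was called in 16 of the 23 fits run, the reported one included.

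The 10 H2A members not called had log2 changes between 0.09 and 0.25. Of these, 9 are Hist1 genes that share exact 75-base windows with H2afx, the replacement histone H2A.X that marks DNA breaks when phosphorylated. No called H2A member shares an exact window with H2afx, but with up to 2 mismatches Hist1h2ak shares 112 windows with it, Hist2h2ac 53, Hist1h2al 47 and Hist2h2ab 12, against 111 to 121 in the 9 members. The window below occurs without mismatch in 9 H2A members and in H2afx, and capitals mark bases that differ from Hist1h2ad.
Hist1h2ad: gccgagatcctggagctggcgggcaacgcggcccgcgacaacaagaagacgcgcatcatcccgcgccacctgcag
H2afx: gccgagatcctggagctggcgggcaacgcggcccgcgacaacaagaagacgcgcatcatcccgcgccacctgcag
Hist1h2al: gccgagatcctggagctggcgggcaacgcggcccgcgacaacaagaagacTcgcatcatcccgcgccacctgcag
Hist1h2ak: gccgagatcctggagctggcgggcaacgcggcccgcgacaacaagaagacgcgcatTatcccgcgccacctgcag
Hist2h2ac: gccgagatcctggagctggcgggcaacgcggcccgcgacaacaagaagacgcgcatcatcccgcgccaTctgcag
Hist3h2a: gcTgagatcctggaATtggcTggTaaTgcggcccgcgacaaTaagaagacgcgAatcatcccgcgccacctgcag
Hist1h2al, Hist1h2ak and Hist2h2ac each differ from it by a single base. The 9 members share 43 exact windows each with H2afx, or 37 in Hist1h2af. Called members share exact windows with other genes outside the clusters. With Gm20634 Hist1h2al shares 115, Hist2h2ac 72 and Hist2h2ab 24, against 40 to 46 in the 9 members. Hist1h2ak shares 56 with Gm11336, as the 9 members also do in part, and 17 with Trim17.

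Relative to the bulk of genes H2afx itself fell at 54 h. It went from 106, 87.3 and 92.7 CPM in scrambled to 53.5, 77.2 and 53.7 CPM in Foxl2 siRNA libraries. The log2 change was -0.63 ± 0.19 (adjusted p = 0.0162 by edgeR, n = 3 per group). Scaling to the ERCC spike-ins adds 0.81 to every log2 change at 54 h, which turns that of H2afx to above 0. The 9 members summed to 86.4, 67.8 and 74.8 CPM in scrambled and 90.5, 88.1 and 80.0 CPM after Foxl2 siRNA. The 4 called members summed to 13.4, 10.9 and 11.5 CPM and to 36.8, 16.6 and 31.3 CPM. Hist1h2ad, the member with the largest log2 change among the 9, moved from 10.4, 8.25 and 8.91 to 11.8, 10.9 and 10.1 CPM, and the groups overlapped (log2 change 0.25 ± 0.13; adjusted p = 0.156 by edgeR, n = 3 per group). How reads that match several copies were counted is not given in the sources used here, and the part of H2afx reads in these counts was not tested.

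Hist3h2a, the only H2A member of the Hist3 cluster, shares no exact window with H2afx but 635 with transcripts annotated to Trim17. It stood at 11.1, 7.59 and 9.08 CPM in scrambled and 10.9, 9.89 and 10.7 CPM after Foxl2 siRNA at 54 h (log2 change 0.18 ± 0.13; adjusted p = 0.273 by edgeR, n = 3 per group). The groups overlapped.

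**Figure D3:**
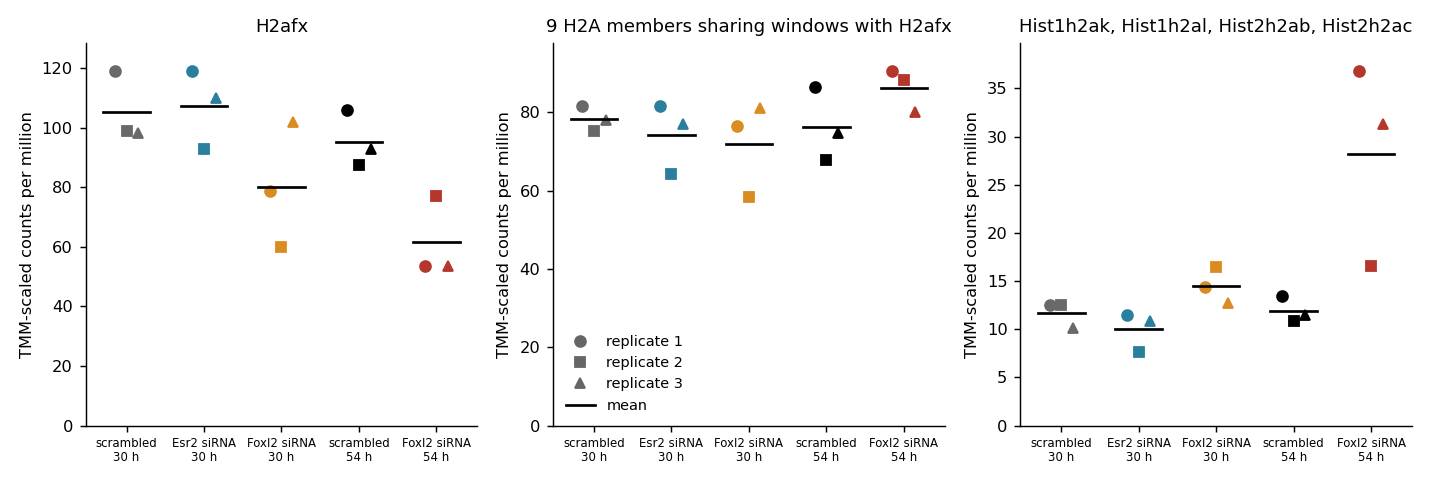
TMM-scaled CPM by library of H2afx, of the 9 H2A members that share exact windows with it, summed, and of the 4 H2A members higher at 54 h, summed, with a line at each group mean. After Foxl2 siRNA at 54 h H2afx is low, the 9 members stay near 76.3 to 86.2 CPM in the mean and the 4 members rise to a mean of 28.2 CPM.

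Most S phase and mitosis genes were lower at 54 h relative to the bulk of genes. Of 43 S phase genes 37 were lower and 0 higher (median log2 change -0.68), and of 20 mitosis genes 19 were lower and 0 higher (median -0.83), at an adjusted p under 0.05 by edgeR. Of all genes tested, 38.8% were called in either direction and 18.5% were higher. Mcm10, a replication factor, fell from 27.2, 24.8 and 24.6 to 9.79, 12.8 and 11.6 CPM (log2 change -1.16 ± 0.12; adjusted p = 1.66e-05 by edgeR, n = 3 per group). Bub1, a spindle checkpoint kinase, fell from 50.4, 49.8 and 50.4 to 20.1, 32.6 and 23.9 CPM (log2 change -0.97 ± 0.14; adjusted p = 0.000217 by edgeR). Scaling to the ERCC spike-ins adds 0.81 to every log2 change at 54 h, which leaves the histone classes higher and turns the S phase median to above 0, so these directions are relative to the bulk of genes.

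Of 23 factors that transcribe, cut or degrade histone mRNA 10 were lower and 0 higher at 54 h (median log2 change -0.19). The number called is near the 38.8% of all genes called in either direction, but 0 were higher, against 18.5% of all genes. Slbp fell from 74.3, 72.3 and 72.5 to 61.7, 57.9 and 57.0 CPM, and the groups did not overlap (log2 change -0.31 ± 0.09; adjusted p = 0.0162 by edgeR, n = 3 per group). Npat went from 66.8, 62.2 and 64.2 to 52.9, 63.5 and 50.9 CPM, with the second library within the scrambled range (log2 change -0.21 ± 0.07; adjusted p = 0.0314 by edgeR). Nelfe, a subunit of the negative elongation factor, which takes part in histone mRNA 3′ processing, fell by 0.52 ± 0.08 on the log2 scale (adjusted p = 0.000344 by edgeR). These falls are relative to the bulk of genes. Spike-in scaling would add 0.81 and turn the changes of Slbp, Npat and Nelfe to above 0.

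Of 22 histone chaperones 12 were lower and 1 was higher at 54 h, where 38.8% of all genes were called and 18.5% were higher. Nap1l1, a chaperone of H2A and H2B, fell from 255, 259 and 259 to 154, 181 and 158 CPM. Its log2 change was -0.65 ± 0.08 (adjusted p = 9.05e-05 by edgeR, n = 3 per group), which spike-in scaling would turn to above 0. Daxx, which deposits H3.3 with Atrx, rose from 49.1, 46.0 and 48.0 to 78.7, 60.4 and 67.9 CPM (log2 change 0.53 ± 0.09; adjusted p = 0.000584 by edgeR).

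Of 11 replacement histones 4 were lower and 2 higher at 54 h, where 38.8% of all genes were called and 18.5% were higher. H2afz, the histone H2A.Z, fell from 481, 483 and 487 to 232, 238 and 243 CPM (log2 change -1.02 ± 0.14; adjusted p = 0.000108 by edgeR, n = 3 per group), and the libraries of each group lay close together. H3f3b, a gene of the replication-independent histone H3.3, rose from 661, 615 and 620 to 864, 718 and 831 CPM (log2 change 0.35 ± 0.07; adjusted p = 0.00238 by edgeR).

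**Figure D4:**
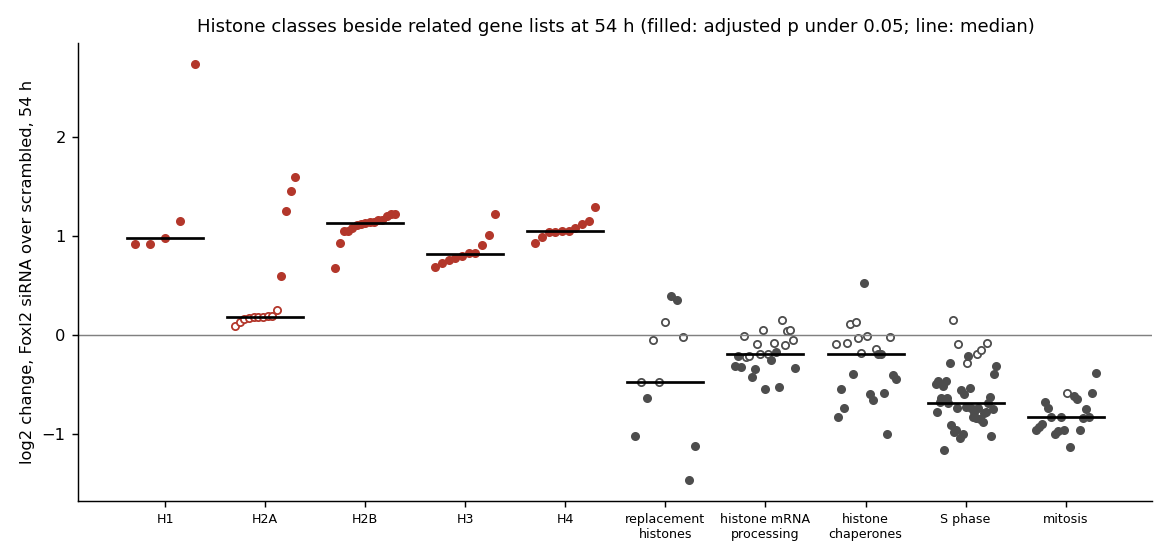
Log2 change at 54 h of each tested member by class (red) beside related gene lists (grey), with filled symbols at an adjusted p under 0.05 and a line at each median. Relative to the bulk of genes the medians of H1, H2B, H3 and H4 lie at 0.82 to 1.13 and those of S phase and mitosis genes at -0.68 and -0.83, and spike-in scaling would add 0.81 to each point.

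Several markers of the ovarian surface epithelium were also higher after Foxl2 siRNA at 54 h. Of 11 such markers 7 were higher and 0 lower by edgeR, where 18.5% of all genes were higher. Their summed level was 413 to 486 CPM in scrambled and 1020 to 1100 CPM in Foxl2 siRNA libraries. Unlike the H1, H2B and H4 sums, it was thus even across the Foxl2 siRNA libraries. The one with the smallest p, Krt18, moved from 105, 124 and 113 to 222, 185 and 233 CPM (log2 change 0.90 ± 0.09; adjusted p = 9.18e-06 by edgeR, n = 3 per group). Wt1 is on that list and on the granulosa list. The leukocyte markers summed to 4.44 to 4.69 CPM and to 6.37 to 7.37 CPM. Of the 5 tested 2 were higher and 0 lower by edgeR. Csf1r had the smallest p of these, at 0.641, 0.797 and 0.744 CPM in scrambled and 3.21, 1.89 and 1.43 CPM in Foxl2 siRNA libraries. The theca and stroma markers ranged widely within both groups, from 332 to 1050 and from 412 to 1350 CPM. The part of these cell types in the histone change was not tested.

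At 30 h after Foxl2 siRNA 0 of the 54 tested members were called by edgeR, where 13.0% of all genes were. An unadjusted p under 0.05 was seen in 2, and the share of all genes at that cut is not given here. DESeq2 called 1 member and limma voom 0. With TMM scaling 45 of the 54 log2 changes were above 0 (median 0.28, against -0.01 over all genes tested), though spike-in scaling turns the H3 and H4 sums to below 0. The H2B sum was 117, 145 and 118 CPM in scrambled and 174, 197 and 137 CPM in Foxl2 siRNA libraries at 30 h, so the groups overlapped. The H1 sum was 32.5, 33.0 and 28.0 against 39.8, 43.5 and 32.9 CPM, and these also overlapped. Hist2h2be had the smallest p of the members here, at 4.05, 3.77 and 3.81 against 5.99, 5.11 and 4.17 CPM (log2 change 0.39 ± 0.14; adjusted p = 0.0763 by edgeR, n = 3 per group). The count was 5 without the second Foxl2 siRNA library at 54 h and 2 without the third at 30 h, both times all higher. Of all genes tested, 18.7% and 19.9% were called in those fits.

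An interaction term tested whether Foxl2 siRNA changed the members more at the later time. By edgeR 0 of 54 members were called, where 0.00671% of all genes were, and 16 had an unadjusted p under 0.05. The share of all genes at that cut is not given here, and copies share reads. DESeq2 and limma voom called 0. All 54 log2 differences were above 0, with a median of 0.68. The smallest adjusted p was that of Hist2h3b, 0.343 at a log2 difference of 1.05 ± 0.36. Without the second Foxl2 siRNA library at 54 h the count was 21, all larger at 54 h. The share of all genes called in that fit is not given here. So the changes at 30 h and 54 h were not shown to differ with all libraries in the fit.

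After Esr2 siRNA no member passed the test, and the H3 class had the lowest median log2 change. By edgeR 0 of 54 members were called at 30 h, where 4.23% of all genes were, but 7 had an unadjusted p under 0.05, and all 7 encode H3. The share of all genes at that cut is not given here, and these copies share reads. DESeq2 called 1 member, which was lower, and limma voom 0. The H3 sum was 12.9, 14.3 and 11.1 CPM in scrambled and 7.07, 7.82 and 11.4 CPM in Esr2 siRNA libraries, so the third Esr2 siRNA library lay within the scrambled range. The median log2 change of the 10 H3 members was -0.65, against 0.04 for H1, -0.07 for H2A, 0.16 for H2B and -0.22 for H4. Without the third Esr2 siRNA library 4 members were called, all lower, where 2.05% of all genes were called.

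Hist1h3h had the smallest adjusted p of the members after Esr2 siRNA. It stood at 1.55, 1.54 and 1.26 CPM in scrambled and 0.762, 0.899 and 1.14 CPM in Esr2 siRNA libraries, which did not overlap (log2 change -0.63 ± 0.18; adjusted p = 0.0726 by edgeR, n = 3 per group). Hist1h3d was at 1.43, 1.52 and 1.31 against 0.795, 0.841 and 1.30 CPM (log2 change -0.53 ± 0.18; adjusted p = 0.135 by edgeR). Hist2h3b, which lies outside the Hist1 cluster, was at 1.28, 1.81 and 1.26 against 1.31, 1.35 and 1.58 CPM and overlapped (log2 change -0.03 ± 0.26; adjusted p = 0.97 by edgeR). H2afx was at 119, 98.9 and 98.3 against 119, 93.0 and 110 CPM (log2 change 0.03 ± 0.18; adjusted p = 0.967 by edgeR).

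The 2 knockdowns differed in H3. Between Foxl2 siRNA and Esr2 siRNA at 30 h, 7 members were higher after Foxl2 siRNA and 0 were lower by edgeR, where 20.4% of all genes were called and 11.1% were higher. All 7 are H3 genes of the Hist1 cluster: Hist1h3a, Hist1h3b, Hist1h3c, Hist1h3d, Hist1h3f, Hist1h3h and Hist1h3i. The H3 sum was 13.4, 15 and 15.2 CPM after Foxl2 siRNA and 7.07, 7.82 and 11.4 CPM after Esr2 siRNA, and the groups did not overlap. Hist1h3h had a log2 difference of 0.85 ± 0.18 (adjusted p = 0.00519 by edgeR, n = 3 per group), from 1.55, 1.60 and 1.91 CPM after Foxl2 siRNA and 0.762, 0.899 and 1.14 CPM after Esr2 siRNA. Hist1h3d differed by 0.82 ± 0.18 (adjusted p = 0.00683 by edgeR). These copies share windows, so the 7 calls are not 7 separate measurements. The count fell to 1 when only these groups were in the fit, to 3 without the first Esr2 siRNA library and to 4 without the second Foxl2 siRNA library at 30 h.

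H4 sums in this comparison were 27.0, 26.0 and 23.4 CPM after Foxl2 siRNA and 21.6, 13.4 and 20.0 CPM after Esr2 siRNA. The groups did not overlap, yet 0 of 10 H4 members were called by edgeR, and 0 had an unadjusted p under 0.05. DESeq2 and limma voom each called 7 members in all classes together.

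**Figure D5:**
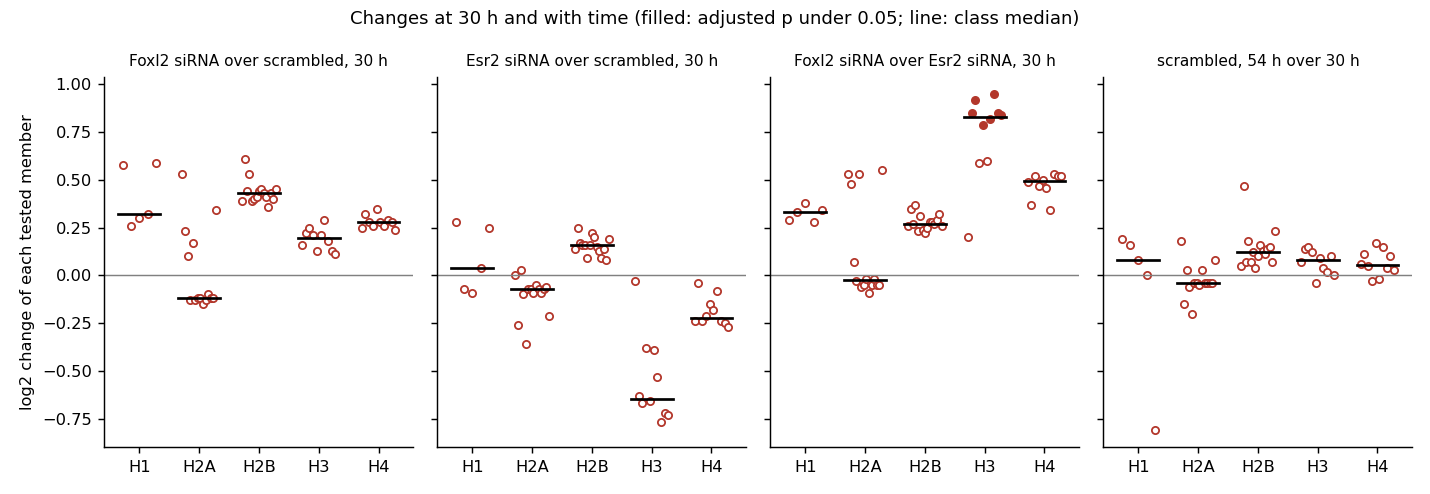
Log2 change of each tested member by class in the comparisons at 30 h and between the scrambled groups, with filled symbols at an adjusted p under 0.05 and a line at the class median (TMM scaling). The H3 class has the lowest median after Esr2 siRNA, with 1 H3 member near 0, and the 7 called members are H3 genes of the Hist1 cluster in the comparison of the 2 knockdowns.

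No member passed the test for time in culture. Between the scrambled groups at 54 h and 30 h, 0 of 54 members were called by edgeR, where 0.00671% of all genes were, 0 had an unadjusted p under 0.05, and DESeq2 and limma voom called 0. The class medians lay between -0.04 and 0.12 on the log2 scale. The H3 sum was 12.9, 14.3 and 11.1 CPM at 30 h and 13.7, 14.0 and 12.5 CPM at 54 h, and the H2B sum was 117, 145 and 118 against 138, 141 and 133 CPM. In both classes the groups overlapped.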

How the data were processed

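The deposited values are raw read counts per gene for each library, made by the authors from single 75-base reads of stranded poly(A) libraries. Tools named in the submitters' processing notes are TopHat2, DESeq2 and bcl2fastq 2.15.0, with mm10 as the build. Which program counted reads, on which annotation and strand setting, and how it treated reads that match several places, is not given in the sources used here, so counts of near-identical histone copies are uncertain one by one. Sums over such copies may hold the same read more than once. In 1 scrambled library at 30 h, 15 symbols had become dates and were restored by the shared gene order. ERCC spike-ins (0.105% to 0.352% of counts) were left out of library sizes.

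Counts were tested with edgeR 4.0.16 (R 4.3.3): two-sided quasi-likelihood tests in 1 fit of 5 group means over all 15 libraries, TMM scaling, the default expression filter (14907 genes), 10 residual degrees of freedom and Benjamini-Hochberg adjustment over all genes tested, called at an adjusted p under 0.05. The script was tested on simulated counts. Class sums carry no test. Errors are standard errors of log2 changes. Replicates differed beyond sampling noise in every group (chi-square per degree of freedom 6.85 to 122). The floor of 3 counts was 0.0504 to 0.0667 CPM and covers counting error only.

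Shared 75-base windows, stem-loops and transcript windows come from GENCODE M21, and promoters from RefSeq. Alternatives were DESeq2 1.42.0, limma 3.58.1 voom, other scalings and filters, the replicate number as a block, fewer groups in the fit and each library left out. Replicate numbers were checked by the correlation of deviations from group means: of the pairs of groups compared, it was above 0.1 for all 3 numbers only between the scrambled groups (0.72, 0.63 and 0.17), where the labels state no pairing and the block changed no call.

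The members and lists were chosen with earlier results of these data known. Named members were the 3 of each class with the highest mean level, up to 8 called members with the smallest p per comparison, those alone in their class and cluster, and those next to the minimum; from each list, the called gene with the smallest p in each direction at 54 h, with Slbp, Npat, Foxl2 and Esr2.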

Additional observations from a re-analysis of the deposited data

How the results depend on the processing

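After Foxl2 siRNA at 54 h the count of called members was 34 to 44 with a library left out. It was 35 to 44 under the other alternatives. The share of all genes called was 29.3% to 44.8% with a library left out and 31.3% to 40.9% otherwise. The same 31 members were called in every one of the 23 fits. The count was 0 to 5 with a library left out for Foxl2 siRNA at 30 h, 0 to 4 for Esr2 siRNA at 30 h, 0 to 21 for the difference between times and 3 to 10 for Foxl2 against Esr2 siRNA. DESeq2 called 1 member each for Foxl2 siRNA and Esr2 siRNA at 30 h, where 18% and 7.44% of all genes were called. With only the groups compared in the fit 1 member was called for Foxl2 against Esr2 siRNA. The cause of these shifts was not tested. Among the named members called at 54 h, 14 alternative values lost the call, and of the 440 alternative values for all 20 named members 0 changed direction.

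With the replicate number as a block the counts were 44 at 54 h, 7 for Foxl2 against Esr2 siRNA and 0 in the other comparisons, so no count changed. The correlation of same-numbered libraries' deviations ranged from -0.55 to 0.75 and was over 0.1 in 15 of 30 pairs. Between scrambled and Foxl2 siRNA at 30 h it was 0.54, 0.52 and 0.07 for replicate numbers 1, 2 and 3. Between Foxl2 siRNA at 30 h and 54 h it was 0.75, -0.31 and -0.36. Whether same-numbered libraries share an origin was not tested.

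Scaling to spike-ins moved all class sums, since it shifts every gene by -0.32 (Foxl2 siRNA, 30 h), 0.81 (Foxl2 siRNA, 54 h), -0.60 (Esr2 siRNA), -0.72 (time) and 0.27 (Foxl2 against Esr2 siRNA) on the log2 scale; within groups this scaling factor itself spanned up to 0.97 to -0.35. With it the log2 ratios of the H1, H2A, H2B, H3 and H4 sums were 0.06, -0.41, 0.15, -0.11 and -0.05 for Foxl2 siRNA (30 h), 1.81, 1.21, 1.98, 1.69 and 1.95 for Foxl2 siRNA (54 h), -0.63, -0.73, -0.52, -1.16 and -0.93 for Esr2 siRNA, -0.73, -0.82, -0.68, -0.71 and -0.74 for time, and 0.70, 0.32, 0.67, 1.04 and 0.87 for Foxl2 against Esr2 siRNA. The other alternatives moved no class sum by more than the spread between replicates. Low members such as Hist1h1a rest on few counts per library.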
